A study of Caenorhabditis elegans with 2 samples.

Results

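Broad CHD-3 binding regions were examined in a list of peaks from chromatin immunoprecipitation followed by sequencing (ChIP-seq) of adult Caenorhabditis elegans. A broad peak was defined by width alone, as a peak that runs for 1000 bp or more from its first to its last base. By this rule 474 of the 4940 listed peaks were selected, and the other 4466 are called narrower peaks. The list was deposited with 1 ChIP sample, labelled replicate 2, and whether reads of other replicates were pooled is not given in the sources used here. For this sample a polyclonal rabbit antibody raised to CHD-3 and purified by affinity was used, and the labels name 1 input DNA sample beside it, whose signal was not analysed here. Both samples were made from worms of the strain fem-2(b245), genotype fem-2(b245)III, given as hermaphrodites and as young adults that contain a germline, and grown at 20 °C. The growth protocol describes harvest of gravid adults. Whole worms were used, so a region occupied in few cells cannot be told apart from one that is weakly occupied in many.

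CHD-3 is a relative of Mi-2, the ATPase that moves nucleosomes in the nucleosome remodelling and deacetylase complex (NuRD). NuRD joins this motor to histone deacetylases and is known for its part in gene repression and in keeping cell fates. In C. elegans CHD-3 and the related protein LET-418 are the Mi-2 proteins. The gene fem-2 promotes male development and the formation of sperm. The width of a listed peak depends both on the extent of the enriched DNA and on how the peak caller joins or divides it.

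The list holds a position and a score for each peak, with no replicate, no read counts and no values of the input sample, so the read depth is unknown. Positions are those of WormBase WS220 and are counted from 1. The file does not name the scale of the score. Scores began at 50, and 111 peaks were tied at 3100, which may be the limit of the scale, so these tied peaks are counted apart. The 95% intervals given with shares are exact binomial intervals, those of differences between shares are Newcombe intervals from Wilson limits, and those of medians come from binomial order statistics. They cover counting error only and treat neighbouring peaks as independent, which makes them too narrow where peaks lie in groups. No test across samples is possible with 1 list. No gene was assigned to a peak and no sequence was read, since no annotation or genome of the peaks' own build was used here.

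Broad peaks formed a long tail of widths above the body of the list. They were 9.60% of the peaks and 36.8% of the covered length, with 956.0 kb in broad peaks and 1644.9 kb in narrower ones. Their median width was 1494.5 bp with an interquartile range of 1159 to 2180.5 bp, against a median of 306.5 bp in the narrower peaks. The widths fell off steeply from the limit. The class of 1000 to 1249 bp held 163 broad peaks, or 34.4% of them, and 75 more were 1250 to 1499 bp wide. Between 1500 and 1999 bp there were 103, between 2000 and 2999 bp 61, and between 3000 and 4999 bp 46. The 26 widest, of 5000 bp or more, made up 5.49% of the broad peaks and held 18.8% of their length, as much as the 163 peaks of the lowest class with 18.9%.

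The limit of 1000 bp cut through a continuous range. The narrowest members measured 1004 bp on chromosome I from 7500047 (score 607.3), 1005 bp on V from 20433565 (score 452.6) and 1005 bp on II from 2002963 (score 355.1). The widest peaks left outside measured 999 bp on II from 3226836 (score 336.1), 998 bp on I from 2586823 (score 559.3) and 998 bp on II from 2981252 (score 419.1). Scores inside and outside the limit overlapped.

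Broad peaks had far higher scores than narrower ones, as follows in part from their choice by width. The median score was 1077.4 in broad peaks, with an interquartile range of 569.2 to 2705.8, and 104.8 in narrower peaks, with 69.6 to 186.2. Of the broad peaks 379, or 80.0%, scored above the 95th percentile of the narrower peaks, which was 510.4. The tie at 3100 was almost wholly made of broad peaks, with 106 of its 111 rows, and both values above the tie were broad as well. These were a peak of 2770 bp on II from 14835487 to 14838256 (score 3174.4) and a peak of 1100 bp on X from 16100075 to 16101174 (score 3114.2). The 5 narrower peaks at the tie were 536 to 952 bp wide.

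The score was also higher per base pair. The median score per bp was 0.589 in the 474 broad peaks (95% interval 0.560 to 0.626) and 0.343 in the 4466 narrower peaks (0.340 to 0.347). Counting only peaks scored below 3100, it was 0.526 in 366 broad peaks (0.501 to 0.562) and 0.343 in 4461 narrower ones (0.340 to 0.347). Merging of peaks with gaps under 500 bp before the width limit left a broad minus narrower difference in the median of 0.0748 per bp, in place of 0.246. The width of a merged region includes the bases of its gaps, which lowers its score per bp. The ranges overlapped widely. Of the broad peaks 125, or 26.4%, lay above the 95th percentile of the narrower peaks (0.961 per bp), and 49, or 10.3%, lay below the narrower median. The highest values per bp in the list belonged to narrower peaks, with a maximum of 6.61 against 3.05 among broad ones, and 33 narrower peaks exceeded the highest broad peak below the tie. The lowest score of 50 keeps very narrow peaks from having a low score per bp. With no score above 3174.4, no broad peak can exceed 3174.4 divided by 1000 bp, and the limit is lower still for wider peaks. The lower maximum of broad peaks and the count of 33 therefore follow at least in part from the width rule.

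**Figure D1:**
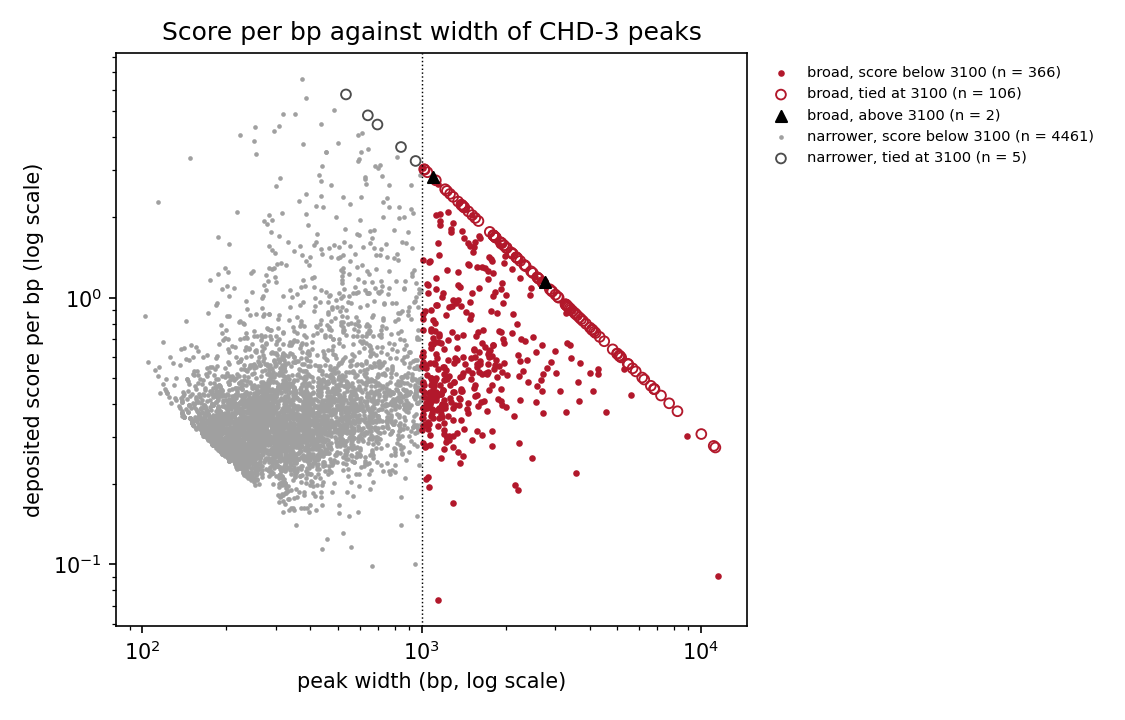
Score per bp (vertical, log scale) against width in bp (horizontal, log scale) for all 4940 peaks, with the limit of 1000 bp as a dotted line. Broad peaks below the tie (red dots, n = 366) spread widely in score per bp, while those tied at 3100 (open red circles, n = 106) fall on a straight line because their score is constant.

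Within the broad peaks, the share scored 3100 or more, with the 2 values above the tie counted in, climbed with width. It was 7 of 163 peaks, or 4.29%, at 1000 to 1249 bp, 13.3% at 1250 to 1499 bp and 14.6% at 1500 to 1999 bp. It was 41.0% of 61 peaks at 2000 to 2999 bp, 63.0% of 46 at 3000 to 4999 bp and 84.6% of 26 at 5000 bp or more. Among all broad peaks Spearman's rho between score and width was 0.69 (n = 474), and between score per bp and width it was 0.19. Among the 366 below the tie these were 0.61 and 0.16. All points come from 1 list and share its depth, and width enters both measures of the second relation. The median score per bp was 0.477 at 1000 to 1249 bp, 0.663 at 1500 to 1999 bp and 1.02 at 2000 to 2999 bp, and it was lower in the wider classes, at 0.759 and 0.481. The rise past 2000 bp came with the tied peaks. Below the tie the medians were 0.472 at 1000 to 1249 bp, 0.508 at 1250 to 1499 bp, 0.621 at 1500 to 1999 bp, 0.560 at 2000 to 2999 bp and 0.520 at 3000 to 4999 bp. In the widest class no score was above 3100, so no value exceeded 3100 divided by the width, and 0.618 was the maximum.

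The 26 widest peaks were few enough to be given one by one in part. All but 4 were tied at 3100. The 4 exceptions were the widest peak of the list, on I from 4345316 to 4356880 (11565 bp, score 1043.1), and those on II from 3159605 to 3168558 (8954 bp, score 2716.7), on II from 9814419 to 9819723 (5305 bp, score 2859.7) and on III from 7415482 to 7421112 (5631 bp, score 2441.7). The widest peak had 0.090 score per bp, the second lowest of all broad peaks. The other peaks over 10 kb, on I from 10207999 (11294 bp), 15060214 (11140 bp) and 10266300 (10056 bp), were tied, so their values of 0.274, 0.278 and 0.308 per bp are set by the tie. The next 5 in width after the peak of 8954 bp were also tied. They lay on V from 7916818 (8260 bp), on III from 6566780 (7712 bp), on I from 10945889 (7211 bp) and on V from 10605659 (6832 bp) and 17119885 (6822 bp). The widest peak of IV measured 5704 bp (from 4416385) and that of X 6281 bp (from 16929703), both tied.

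Broad peaks of similar width differed much in score per bp. The highest values below the tie were on IV from 8467447 to 8468458 (1012 bp, 3.05 per bp), on III from 9533395 to 9534540 (1146 bp, 2.67), on I from 2542847 to 2544094 (1248 bp, 2.10), on III from 13326924 to 13328088 (1165 bp, 2.06) and on IV from 1476079 to 1477207 (1129 bp, 2.05). All 5 were under 1250 bp wide, and a score below 3100 permits values this high only at small widths. The lowest was on III from 13780670 to 13781818 (1149 bp, score 84.8), with 0.074 per bp the lowest value of the whole list. Its score was also the lowest of any broad peak, and it ended 1.20 kb before the last listed base of chromosome III. After it and the widest peak on I came peaks on V from 8328014 (1300 bp, 0.170), on IV from 7593315 (2216 bp, 0.190) and on V from 8713916 (1061 bp, 0.194).

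Broad peaks were listed close to other peaks. The gap to the nearest listed peak had a median of 213 bp for broad peaks (95% interval 141 to 353 bp) and 803.5 bp for narrower ones (732 to 904 bp). A neighbour less than 50 bp away was present for 135 broad peaks, or 28.5% (24.5 to 32.8%), and for 13.9% of narrower peaks (12.9 to 15.0%). With 500 bp as the limit the shares were 57.8% (53.2 to 62.3%) and 43.1% (41.6 to 44.5%), a difference of 14.7 percentage points (10.0 to 19.3). The difference was concentrated in peaks that had such a neighbour on both sides, which were 119 of 474 broad peaks, or 25.1% (21.3 to 29.3%), and 10.2% of narrower ones (9.36 to 11.2%). Peaks with a close neighbour on a single side were as common in both sets, at 32.7% and 32.8%.

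Other broad peaks stood alone. For 105 of them, or 22.2% (18.5 to 26.2%), no other peak lay within 5000 bp, against 30.0% of narrower peaks (28.6 to 31.3%). Isolated and crowded broad peaks had close median widths, 1494 bp for the isolated ones and 1552 bp for the 119 with close neighbours on both sides. The isolated ones had the wider tail, with an upper quartile of 2504 bp against 2014.5 bp, and 10 of them measured 5000 bp or more against 4 of the crowded ones. The sets differed in how often the tie was reached. Of the isolated broad peaks 38, or 36.2% (27.0 to 46.1%), scored 3100 or more, against 11, or 9.24% (4.71 to 15.9%), of those crowded on both sides. Broad peaks with a close neighbour on a single side lay between, with 25.8% (19.1 to 33.4%), and those whose nearest peak was 500 to 4999 bp away had 20.0% (12.5 to 29.5%). The median score was 1922.7 in isolated and 862.4 in crowded broad peaks. Below the tie the medians were 635.2 and 788.1, and the scores per bp were close, with 0.520 (0.437 to 0.662) and 0.502 (0.449 to 0.542). This limit takes away 36.2% of the isolated but 9.24% of the crowded peaks. The turned order of the medians therefore compares sets cut unequally at the top. Median widths below the tie were 1219 bp in isolated and 1511.5 bp in crowded broad peaks. The contrast in the share at 3100 or more was found in the wider peaks. At 2000 bp or more it was 32 of 38 isolated peaks, or 84.2% (68.7 to 94.0%), against 6 of 31 crowded ones, or 19.4% (7.45 to 37.5%). At 1000 to 1999 bp it was 6 of 67, or 8.96% (3.36 to 18.5%), in isolated and 5 of 88, or 5.68% (1.87 to 12.8%), in crowded broad peaks, and these intervals overlap. The width limit of 2000 bp was chosen after the values were seen. No such contrast could be seen among narrower peaks, of which 5 in all were tied.

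**Figure D2:**
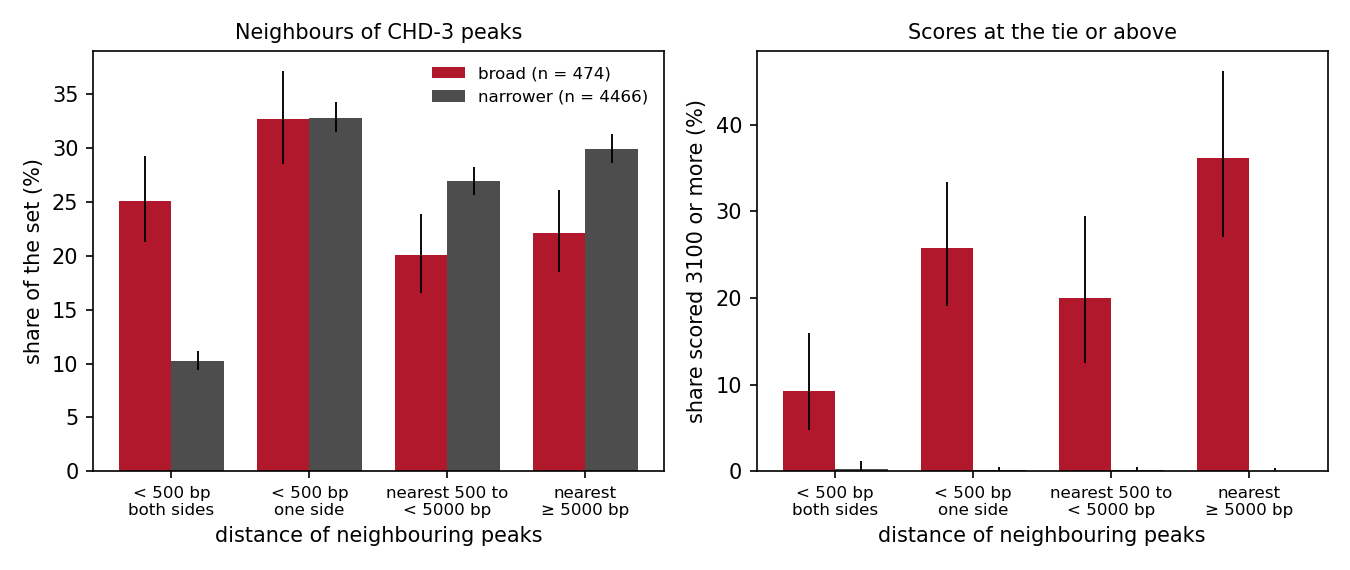
Left, share of the broad (red, n = 474) and narrower (grey, n = 4466) peaks in each class of neighbour distance. Right, share of each class scored 3100 or more. Bars show percentages with 95% exact binomial intervals. Close neighbours on both sides were found for 25.1% of broad and 10.2% of narrower peaks, and 36.2% of isolated broad peaks reached the tie against 9.24% of those crowded on both sides.

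The peak that followed a broad peak along the chromosome was often broad too. This held for 101 of 473 next peaks after a broad peak, or 21.4% (17.7 to 25.3%), and for 373 of 4461 next peaks after a narrower one, or 8.36% (7.57 to 9.21%). The difference narrowed with distance. When the next peak began less than 500 bp on, it was broad in 69 of 195 cases after a broad peak, or 35.4% (28.7 to 42.5%), and in 10.8% of 1192 cases after a narrower one (9.11 to 12.7%). At gaps of 500 to 4999 bp it was broad in 18 of 81 cases after a broad peak, or 22.2% (13.7 to 32.8%), and in 76 of 935 cases after a narrower one, or 8.13% (6.46 to 10.1%). When the next peak was 5000 bp or more away, it was broad in 14 of 197 cases, or 7.11% (3.94 to 11.6%), after a broad peak and in 7.20% of 2334 cases (6.18 to 8.32%) after a narrower one. Merging of peaks with gaps under 500 bp before the width limit left an overall difference of 7.33 percentage points, in place of 12.99. Another broad peak lay within 500 bp of 125 broad peaks, or 26.4% (22.5 to 30.6%), whereas 248 narrower peaks, 5.55% of them (4.90 to 6.27%), had a broad peak that close.

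Narrower peaks beside a broad one stood out a little from the rest. The 233 narrower peaks that directly adjoined a broad peak with a gap under 500 bp had medians of 430 bp in width and 176.5 in score. The 1691 that had only narrower peaks that close had 318 bp and 108.7, and the 2542 with no peak that close had 288.5 bp and 100.6. Their scores per bp had medians of 0.377 (0.350 to 0.400), 0.343 (0.337 to 0.348) and 0.341 (0.337 to 0.347). In 220 adjoining pairs of a broad and a narrower peak, both below the tie, the broad peak had the higher score per bp in 161, or 73.2%, with medians of 0.540 in the broad and 0.361 in the narrower peaks of these pairs.

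Joined where gaps were under 500 bp, the 474 broad peaks fell into 366 stretches. A broad peak was alone in 200 of them, was the single broad peak among narrower ones in 116, and was joined by other broad peaks in 50, which held 158 broad peaks. Only 359 of the 4466 narrower peaks, or 8.04%, belonged to a stretch with a broad peak. All 15 stretches of 10 kb or more contained a broad peak, and the longest stretch without one measured 5693 bp. Such lengths are easier to reach with a broad peak in the stretch, so this is a description only.

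The 7 dense stretches described next, chosen after the values were seen, held 5 or more broad peaks each and 51 in all. The stretch on III from 7405325 to 7443078 had 13, the most of any, and 87.5% of its 37.8 kb lay inside broad peaks. Their widths ran from 1078 to 6630 bp and their scores from 360.2 to 3100, with 1 tied. The stretch on X from 4026012 to 4056447 had 10 broad and 4 narrower peaks, with 89.7% of 30.4 kb inside broad peaks. On IV 2 stretches lay 5.48 kb apart, from 6688800 to 6704703 with 5 broad peaks and from 6710185 to 6729290 with 6. The others were on II from 9807934 to 9825271 with 5, on III from 13584148 to 13599046 with 5 and on V from 6070782 to 6094654 with 7. The stretch on V was made differently, with 24 narrower peaks and only 38.5% of its length inside broad ones. The longest stretch of chromosome I, from 4340847 to 4357553, had 2 broad peaks, which included the widest of the list, and its scores per bp were low throughout, from 0.090 to 0.304.

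**Figure D3:**
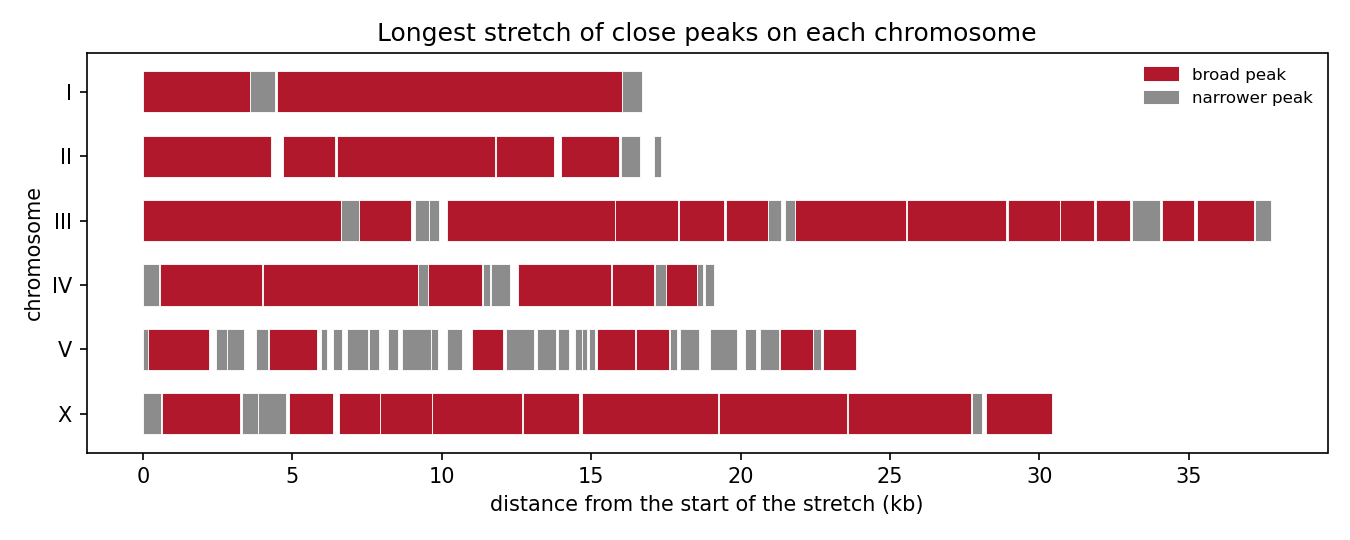
The longest stretch of close peaks on each chromosome, drawn to scale as distance in kb from the start of the stretch, with broad peaks in red and narrower peaks in grey. Broad peaks fill 87.5% of the stretch on III and 89.7% of that on X, but 38.5% of that on V, where 24 narrower peaks lie among 7 broad ones.

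Uninterrupted runs of broad peaks were mostly short. Of the 474 broad peaks 301 had no broad peak next to them in the list at any distance, 56 runs had 2, 9 runs had 3, 4 runs had 4, 2 runs had 5 and 1 run had 8. The run of 8 was on X from 4030892 to 4053734. Its peaks were 1466, 1379, 1728, 3021, 1870, 4568, 4299 and 4116 bp wide in order of position, and the gaps between them were 7 to 208 bp. Their scores per bp were similar, from 0.349 to 0.564, and none was tied. The runs of 5 were on II from 9807934 to 9823873, with 0.395 to 0.541 per bp, and on III from 7427160 to 7438357, with 0.373 to 0.684. The longest on I had 3 peaks, from 4540392 to 4547807, with 2 of them tied.

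The longest runs of IV and V had 4 broad peaks each and were spread out. On IV the run reached from 15079402 to 15190067, with gaps of 1, 83905 and 21028 bp and scores per bp of 1.04 to 1.36. On V it began with peaks from 17117772 (1233 bp), 17119885 (6822 bp) and 17128098 (4093 bp), all tied at 3100 and with 880 and 1391 bp between them, and ended with an untied peak 63018 bp further on (1130 bp, score 467.1). Chromosome V of C. elegans carries a tandem array of genes for the smallest ribosomal RNA, a part of the large subunit, and for a spliced leader RNA. Gene positions were not compared with peaks here.

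Broad peaks occurred on every chromosome at similar density. Lengths were taken from base 1 to the last base of the last listed peak. Chromosome III had 73 broad peaks (5.30 per Mb), IV had 88 (5.03) and II had 76 (5.00). X had 82 (4.63), I had 68 (4.51) and V had 87 (4.17). The densities ranged less than those of narrower peaks, which ran from 36.9 per Mb on V to 56.3 on IV. Among all peaks of a chromosome the broad share was highest on II, with 11.3% (9.03 to 14.0%), and lowest on IV, with 8.21% (6.64 to 10.0%), and these intervals overlap. On X it was 10.6% (8.56 to 13.0%), and on the 5 autosomes together 9.40% (8.53 to 10.3%). Leaving out the 7 dense stretches brought III to 3.99 broad peaks per Mb and IV to 4.40, so that II came first with 4.67.

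**Figure D4:**
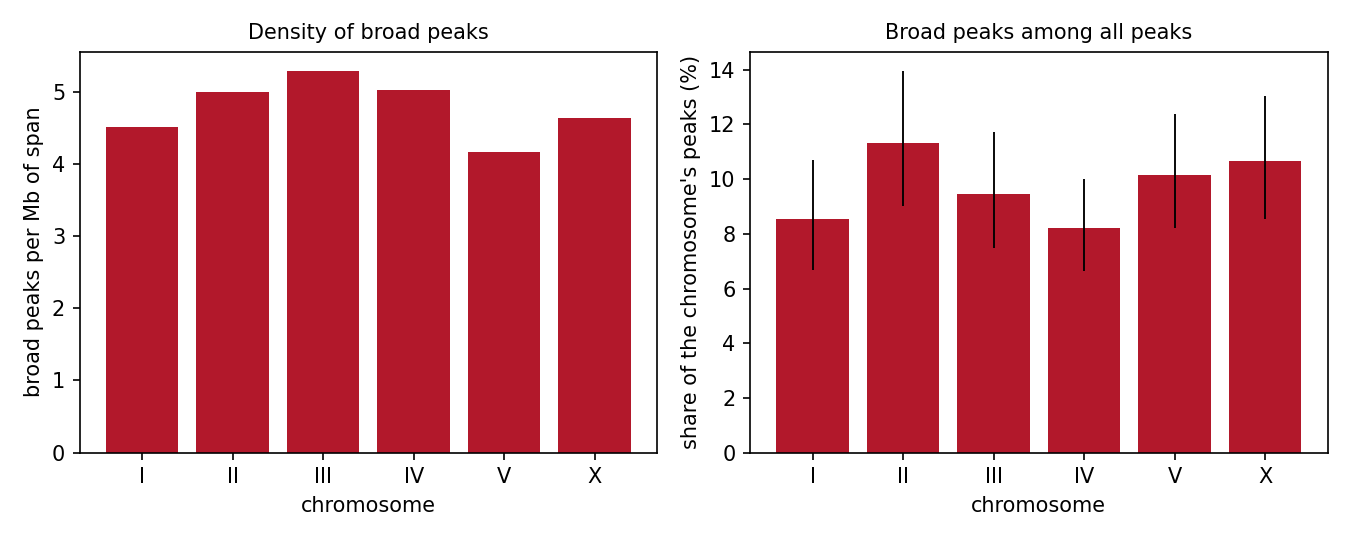
Broad peaks per Mb of chromosome span (left) and broad peaks as a share of all peaks of the chromosome (right, with 95% exact binomial intervals). Densities lie between 4.17 per Mb on V and 5.30 on III, and the shares between 8.21% on IV and 11.3% on II.

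Widths and scores of broad peaks also varied among chromosomes. The median width was 1583 bp on III, 1555 on IV, 1529 on X, 1466 on V, 1400.5 on I and 1354.5 on II. The share scored 3100 or more was highest on I, with 32.4%, and lowest on II, with 14.5%. The median score per bp was highest on IV, at 0.732 (0.600 to 0.946), and lowest on II, at 0.523 (0.456 to 0.647). Below the tie it was 0.642 on IV (0.560 to 0.955) and 0.464 on I (0.425 to 0.567). Narrower peaks gave nearly the same median everywhere, from 0.335 on X to 0.348 on V. I and III had 6 peaks of 5000 bp or more each, V and X 4 each and II and IV 3 each.

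Along the autosomes broad peaks lay further toward the centre than narrower ones. In C. elegans the arms of the autosomes recombine more and hold more repeats than the centres. The central 50% of the spans held 216 of 392 autosomal broad midpoints, or 55.1% (50.03 to 60.1%), and 1760 of 3778 narrower ones, or 46.6% (45.0 to 48.2%), a difference of 8.52 percentage points (3.32 to 13.6). The broad share was the higher one on each autosome, with 55.9% of broad and 46.8% of narrower peaks on I, 52.6% and 46.4% on II, 53.4% and 43.0% on III, 53.4% and 41.8% on IV, and 59.8% and 56.0% on V. On single autosomes the interval of the difference excluded 0 only for IV (0.84 to 22.2 points). The 2 dense stretches of IV, with 5 and 6 broad peaks, lie in its central 50%. This interval counts their peaks as independent and is too narrow for that reason. Merging of peaks with gaps under 500 bp before the width limit left a difference of 3.11 points, and leaving out the 7 dense stretches left 5.26 points.

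The shortfall outside the centre was on the left. The left 25% of the autosomal spans held 16.3% of broad peaks (12.8 to 20.4%) and 27.1% of narrower ones, while the right 25% held 28.6% (24.1 to 33.32%) and 26.3%. Left and right are those of the WormBase coordinates. The left share was lower for broad than for narrower peaks on each of the 5 autosomes. The broad minus narrower difference was -22.1 points on IV, -9.11 on II, -8.33 on III, -6.06 on I and -4.80 on V, and its interval excluded 0 only on IV (-28.0 to -13.3).

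The left end of chromosome IV was rich in narrow peaks and poor in broad ones. Its left 25% held 10 broad peaks, or 11.4% (5.59 to 19.9%) of the 88 on IV, and 329 narrower ones, or 33.4% of 984. Broad peaks were thus 2.95% of the peaks there, against 11.3% in the right 25% of IV. The 10 were 1035 to 3290 bp wide and 2 of them were tied at 3100, from 2828426 (2206 bp) and 3206303 (3290 bp). The longest interval of the genome without a broad peak lay here, from 1477208 to 2828425 (1351.2 kb), and held 129 narrower peaks at 95.5 per Mb, the median of them 272 bp wide and the widest 868 bp. The 500 kb bin with the most narrower peaks of all, 1500001 to 2000000 of IV, had 62 of them and no broad peak. Merging peaks less than 500 bp apart before the width limit gave a left-side difference of -9.86 points on IV in place of -22.1. Broad peaks of IV were most numerous between 30 and 40% of the span, with 16 broad and 99 narrower peaks, and between 80 and 90%, with 18 and 80. Most of the 16 lie in the 2 dense stretches of IV, which have 5 and 6 broad peaks.

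On X the broad share in the centre was the lower one, by a margin that depended on the processing. The central 50% held 30 of 82 broad midpoints, or 36.6% (26.2 to 48.0%), and 46.2% of 688 narrower ones (42.4 to 50.03%), a difference of -9.64 points whose interval included 0 (-19.9 to 1.79). The left 25% of X held 37.8% of broad peaks (27.3 to 49.2%) and 26.5% of narrower ones. The part of X from 20 to 30% of its span alone held 19 broad peaks, or 23.2%, and 75 narrower ones, or 10.9%. The stretch with 10 broad peaks lies in that part, and without the dense stretches the central difference was -4.82 points. It was -3.16 points with a width limit of 1500 bp, and -0.99 points after peaks with gaps under 500 bp were joined. A difference between X and the autosomes was not tested, since 1 list gives no spread between samples.

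**Figure D5:**
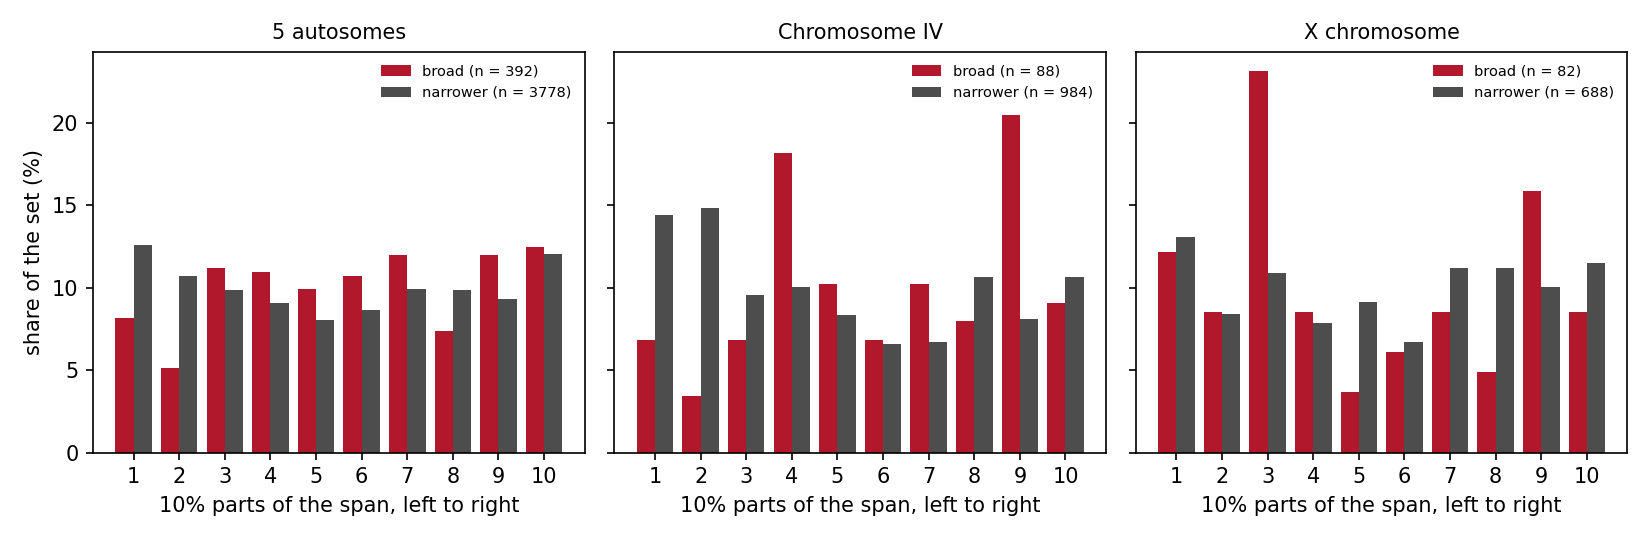
Share of broad (red) and narrower (grey) peaks in each 10% of the chromosome span, from the left end to the right, for the 5 autosomes together, for IV and for X. On IV the first 20% holds 9 broad and 288 narrower peaks, and on X the part from 20 to 30% holds 23.2% of broad and 10.9% of narrower peaks.

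Score per bp and place went together differently by chromosome. On IV the median of broad peaks was 0.946 outside the central 50% and 0.605 inside it, and on V 0.873 outside and 0.644 inside. On X it was 0.555 outside and 0.725 inside. These medians include peaks scored 3100 or more and were given no intervals. Such peaks numbered 6 outside and 9 of 47 inside on IV. On V they numbered 12 outside and 10 of 52 inside, and on X 15 outside and 9 of 30 inside. Among peaks below the tie the order of the medians stayed on IV and on X and turned on V. On I, II and III the medians were close, with 0.539 outside and 0.573 inside on I, 0.531 and 0.523 on II and 0.548 and 0.521 on III. Median widths on the autosomes together were 1383 bp outside the centre and 1538.5 bp inside.

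Broad peaks were spaced unevenly. Between consecutive broad peaks of a chromosome the median interval was 99.9 kb, with an interquartile range of 1.80 to 315.8 kb, and 77 of 468 intervals, or 16.5%, were under 500 bp. Intervals of 500 kb or more numbered 64, and 9 exceeded 1 Mb. The longest by chromosome were 1330.4 kb on I from 5316987, 1155.6 kb on II from 2003968, 1070.3 kb on III from 4282812, 1281.1 kb on V from 11532992 and 984.9 kb on X from 8022162, besides that on IV. Those on I, II, III, V and X held 27 to 50 narrower peaks each, at 21.1 to 37.6 per Mb, fewer than the mean of 36.9 to 50.8 on these chromosomes, so that the interval on IV differed in being full of narrower peaks.

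In 500 kb bins the median was 2 broad peaks and 35 of 203 bins, or 17.2%, had none. There were 4 bins that had 10 or more, and these held 57 broad peaks, 12.0% of all. These were 7000001 to 7500000 of III with 18 broad and 29 narrower peaks, 6500001 to 7000000 of IV with 14 and 45, 4000001 to 4500000 of X with 13 and 25, and 6000001 to 6500000 of V with 12 and 57. Each contains one or more of the dense stretches. The fullest bins of I (7500001 to 8000000) and II (9500001 to 10000000, with another bin of II as full) had 7 broad peaks. Across bins the numbers of broad and narrower peaks were weakly related, with a Spearman's rho of 0.26 over 203 bins of the same list.

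Within 50 kb of an end of the spans there were 3 broad peaks, 0.633% of them, and 1.12% of the narrower peaks, where these ends make up 0.599% of the spans. In the first 50 kb there was 1, on II from 16245 to 17335, and in the last 50 kb there were 2, the lowest-scoring broad peak on III described above and the tied peak of 11140 bp on I, which is also the last listed peak of that chromosome. In C. elegans repeated ribosomal RNA genes lie at the right end of I, and whether this peak covers them was not examined. Apart from these, the first broad peak of a chromosome began between 53.4 kb (X) and 650.0 kb (I) from the left end, and the last ended 51.3 kb (II) to 444.3 kb (V) before the end of the span.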

How the data were processed

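Peaks of the ChIP sample were called by MACS on WormBase WS220, per the file headers and source column. The submitters' processing notes name BWA and the build ce10. The sources used here do not give versions, the calling threshold, the control or any pooling. The authors deposited 1 score per peak and did not name its scale. First and last bases were used as listed.

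Width was last minus first base plus 1, and the score per bp was the score divided by width. Gaps count the bases between listed peaks. Chromosome spans run from base 1 to the last listed base. Midpoints were placed as a share of the span. Merged peaks received the sum of their scores. Their width ran from the first to the last base, so the unlisted bases of the gaps count in their length and lower their score per bp. The peaks named were the 10 widest, the widest of each chromosome, the 5 highest and 5 lowest in score per bp below the tie, those above the tie, those next to the limit, and the longest runs, stretches, intervals and fullest bins by chromosome. The widest peaks below the tie, the dense stretches and the left end of IV were singled out once their values were known. The members and the measures were chosen with earlier results of these data known. No test was run, since 1 list has no replicate. The functions were tested on simulated data with known layout. Python 3.11.15, pandas 2.3.3 and scipy 1.17.1 were used.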

Additional observations from a re-analysis of the deposited data

How the results depend on the processing

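No paired analysis was possible because only the ChIP sample has a peak list and no groups of samples were compared. The alternatives added after seeing the data were the removal of the 7 dense stretches and all alternatives for differences in shares, for X, for IV and for density. Of 46 alternative values of broad minus narrower differences none had the opposite sign and 1 was 0 by construction, the difference in close neighbours after merging. Of all 147 alternative values 103 stayed within the interval of the reported value, or within 1.5 times of a count or a density. Among them were 52 for the main results, and of these 26 stayed and 26 moved. The main results were the number, covered length, score per bp, close neighbours, next peaks and autosomal central share of broad peaks. Several of these could not move, such as values of X and IV without chromosome III. The interval for the share of covered length was scaled from that of the share of peaks.

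A limit of 800 bp gave 696 broad peaks with 44.4% of the covered length, 0.528 score per bp (0.189 above narrower peaks) and a broad next peak after 26.5% of broad peaks. A limit of 1500 bp gave 236 broad peaks with 25.9% of the length, 0.670 per bp (0.322 above) and 15.7%. Merging peaks less than 500 bp apart gave 698 broad regions with 60.5% of the length and 0.409 per bp (0.0748 above). Here the length and the width include the bases of the gaps, unlike the other settings. Merging also gave 25.5% broad next regions after a broad one (7.33 points above those after a narrower one, against 12.99 as reported). The centre held 48.6% of autosomal midpoints of broad regions (3.11 points above narrower ones) and, by construction, 0% had a neighbour less than 500 bp away. Without peaks scored 3100 or more, 26.5% of the length and 0.526 per bp (0.183 above) remained. In the higher-scoring 50% of the list, broad peaks had 48.1% of the length and lay 0.159 per bp above narrower ones. There 50.1% had a close neighbour (17.7 points above narrower peaks) and 27.8% were followed by a broad peak (10.6 points above). Without the dense stretches 52.7% had a neighbour less than 500 bp away, 10.5 points above narrower peaks. With 50 bp or 2000 bp in place of 500 bp the share in the whole list was 28.5% or 71.9%. These lay 14.5 or 11.6 points above narrower peaks. The middle one of 3 equal parts of the spans held 36.0% of autosomal broad midpoints, 6.22 points above the narrower share. The read depth is unknown, so its effect on width could not be examined.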
